A study of Homo sapiens with 9 samples.

Results

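The genes described here are the nuclear genes of oxidative phosphorylation, read by poly-A RNA sequencing in 22Rv1, an established human prostate carcinoma line. They were chosen by symbol: NDUFA, NDUFB, NDUFC, NDUFS and NDUFV followed by a digit, SDHA to SDHD, UQCR, CYC1, COX4 to COX8, and ATP5. The symbols matched 256 rows of the count table, of which 159 carry a pseudogene suffix and were left out. The remaining 97 genes, of 60623 in the table, are 86 subunit genes and 11 others (an inhibitor, a supercomplex factor, 4 assembly factors, and antisense, divergent or readthrough transcripts). All cells carried a short hairpin RNA against PDCD4, which encodes an inhibitor of the helicase EIF4A. One form of PDCD4 was then put back: WT (wild type), S239A, in which an alanine replaces a serine, or S239D, in which an aspartate stands at the same position. Each form had 3 libraries, 9 in all, and the series is about PDCD4 as a substrate of the kinase PLK1 and the response to enzalutamide, an antiandrogen. The labels give neither the vector and promoter of the rescue construct nor whether a form is 1 clone or several lines. They do not say that the 3 libraries came from separate cultures either, so a p-value here covers the spread among the sequenced samples and no more, and that spread may be technical. Cells without the knockdown were not analysed here.

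Oxidative phosphorylation takes place at the inner mitochondrial membrane. Complexes I (NADH dehydrogenase) and II (succinate dehydrogenase) pass electrons to coenzyme Q, complex III passes them on to cytochrome c, and complex IV passes them to oxygen. Complexes I, III and IV pump protons, and complex V, the ATP synthase, uses the gradient to make ATP. Most subunits are encoded in the nucleus, while the mitochondrial genome encodes a core of complexes I, III, IV and V and none of complex II. Prostate epithelium is known for an unusual mitochondrial metabolism, in which normal luminal cells secrete citrate and carcinoma cells oxidise it.

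Promoter windows from RefSeq (GRCh38.p14, 250 bases before to 50 after each annotated start) were matched to 79 members, since factors such as NRF1, the ETS factor GABPA, YY1 and NFY are known regulators of respiratory chain genes. The 8 stretches shown are the 150 bases before a start of members picked from those called in S239D against WT. All but that of NDUFA4L2 carry a searched motif. The same stretches of SDHAF3 and UQCRC2 also carry a motif, those of NDUFB6, NDUFA4 and NDUFB4 carry none, and these are not shown. NDUFA4L2 has 2 annotated starts, and the first listed is used. Capitals mark a searched motif on either strand: the NRF1 palindrome (seen in SDHD and ATP5F1C), CCGGAAG (ETS), CCAAT (NFY) or ACGTG. The last is a form of the core bound by hypoxia-inducible factors and was added after the data were seen. The form of that core with G as its first base was neither searched nor marked. It is present in lower case in the stretch of NDUFA4L2, among others. The longer YY1 motif was searched too and is in none of these stretches. No motif contains another.
NDUFA4L2 (RefSeq symbol COXFA4L2), chr12:57240763-57240912, minus strand: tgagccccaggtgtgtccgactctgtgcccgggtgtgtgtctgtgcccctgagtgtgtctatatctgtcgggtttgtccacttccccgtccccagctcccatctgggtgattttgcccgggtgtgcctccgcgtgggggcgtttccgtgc
COX5A, chr15:74938074-74938223, minus strand: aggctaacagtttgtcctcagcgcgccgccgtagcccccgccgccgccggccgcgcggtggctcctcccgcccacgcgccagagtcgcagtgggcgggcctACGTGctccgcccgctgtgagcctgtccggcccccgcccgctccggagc
SDHB, chr1:17054033-17054182, minus strand: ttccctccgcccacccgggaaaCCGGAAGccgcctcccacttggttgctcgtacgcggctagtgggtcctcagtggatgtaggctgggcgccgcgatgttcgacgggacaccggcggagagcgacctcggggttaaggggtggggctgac
SDHD, chr11:112086723-112086872, plus strand: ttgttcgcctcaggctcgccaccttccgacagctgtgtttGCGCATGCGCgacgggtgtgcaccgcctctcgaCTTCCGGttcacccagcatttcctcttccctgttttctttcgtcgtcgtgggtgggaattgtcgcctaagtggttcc
UQCRH, chr1:46303548-46303697, plus strand: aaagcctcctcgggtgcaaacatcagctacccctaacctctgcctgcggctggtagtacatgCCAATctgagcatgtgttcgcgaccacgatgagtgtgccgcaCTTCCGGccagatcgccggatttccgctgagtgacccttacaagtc
COX6A1, chr12:120437963-120438112, plus strand: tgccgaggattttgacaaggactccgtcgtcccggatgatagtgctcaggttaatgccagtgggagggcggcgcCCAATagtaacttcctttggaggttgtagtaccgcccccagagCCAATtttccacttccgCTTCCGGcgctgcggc
ATP5F1C, chr10:7788027-7788176, plus strand: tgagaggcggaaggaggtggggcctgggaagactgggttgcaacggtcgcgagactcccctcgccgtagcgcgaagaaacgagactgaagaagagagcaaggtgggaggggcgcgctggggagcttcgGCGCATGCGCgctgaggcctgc
NDUFV3, chr21:42893159-42893308, plus strand: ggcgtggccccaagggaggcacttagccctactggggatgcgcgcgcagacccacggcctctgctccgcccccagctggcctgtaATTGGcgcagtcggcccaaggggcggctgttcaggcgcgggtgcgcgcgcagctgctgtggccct

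Across the whole windows of 300 bases, CCGGAAG was found in 23 of the 79 matched members (29.1%) and in 12.2% of all 27305 genes with a window. The NRF1 motif was found in 4 members (5.06%, against 1.52% of all genes) and the YY1 motif in 4 (5.06%, against 1.04%). CCAAT was found in 28 members (35.4%, against 39.7%) and ACGTG in 22 (27.8%, against 24.9%). CCGGAAG was held by 7 of 21 matched members lower in S239D than in WT, by 16 of 47 that passed no test in that comparison, and by 0 of 4 that were higher. A match describes these letters and is not a measured binding site. Windows of ATP5F1B, ATP5F1D, ATP5MC3, ATP5MF, ATP5MF-PTCD1, ATP5MGL, COX4I2, COX6C, COX7A1, CYC1, NDUFB5, NDUFB9, NDUFC2, NDUFS5, SDHC, UQCRB and UQCRHL were not used here.

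Total counts were 5696841 to 9688554 per library. PDCD4 itself was at 20.4 to 24.9 CPM (counts scaled to library size) in WT, 19 to 25 in S239A and 16.8 to 17.2 in S239D, and reads of the cell's own gene and of the construct were not told apart. By edgeR, PDCD4 was called lower in S239D than in WT (log2 fold change -0.44, adjusted p = 0.0164) and than in S239A (-0.40, adjusted p = 0.0245). The part of this difference in the results was not tested. Of the 97 members, 87 passed the filter on low counts and were tested. The other 10 did not, namely COX4I2, COX6A2, COX7A1, COX7B2 and ATP5MGL, with 0 counts in all libraries, and COX8C, COX6B2, NDUFB2-AS1, NDUFV2-AS1 and NDUFC2-KCTD14, with 0 to 13 counts each. A count of 0 allows up to 3 counts, or 0.31 to 0.527 CPM, for counting error only. Replicate 2 of S239A and replicate 2 of S239D stood apart: the median tested member lay 0.33 and 0.36 log2 units under the WT mean in them, against -0.10 to 0.081 in the other 4 variant libraries. Members with transcripts of up to 643 bases (their median) lay at -0.40 and -0.36 in these libraries and longer members at -0.26 and -0.28, while all tested genes of either length class lay within 0.01 of WT. These 2 libraries also had the highest mitochondrial share of counts in their groups (5.38% and 6.01%). The counts of members and lists are therefore also given without them, an alternative chosen after seeing the data. All 30 members called in S239D against WT kept their call and direction in it. The values of NDUFB10, UQCRH and COX6B1 moved by more than 1.5 times and are given both ways, as are some others. Epithelial markers were present, and all 4 on the list (EPCAM, CDH1, KRT8, KRT18) were called lower in S239D than in WT, at log2 fold changes of -1.25 to -0.40. Of 5 fibroblast markers, DCN (-2.22) and LUM (-0.90) were called lower and COL1A1 stood at 26.8 to 37.2 CPM in all libraries. The part of these markers in the results was not tested. Immune and endothelial markers were at or near 0 in all groups (0 for CD3E and CDH5). Bulk RNA cannot tell fewer cells of a kind from less RNA per cell.

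**Figure D1:**
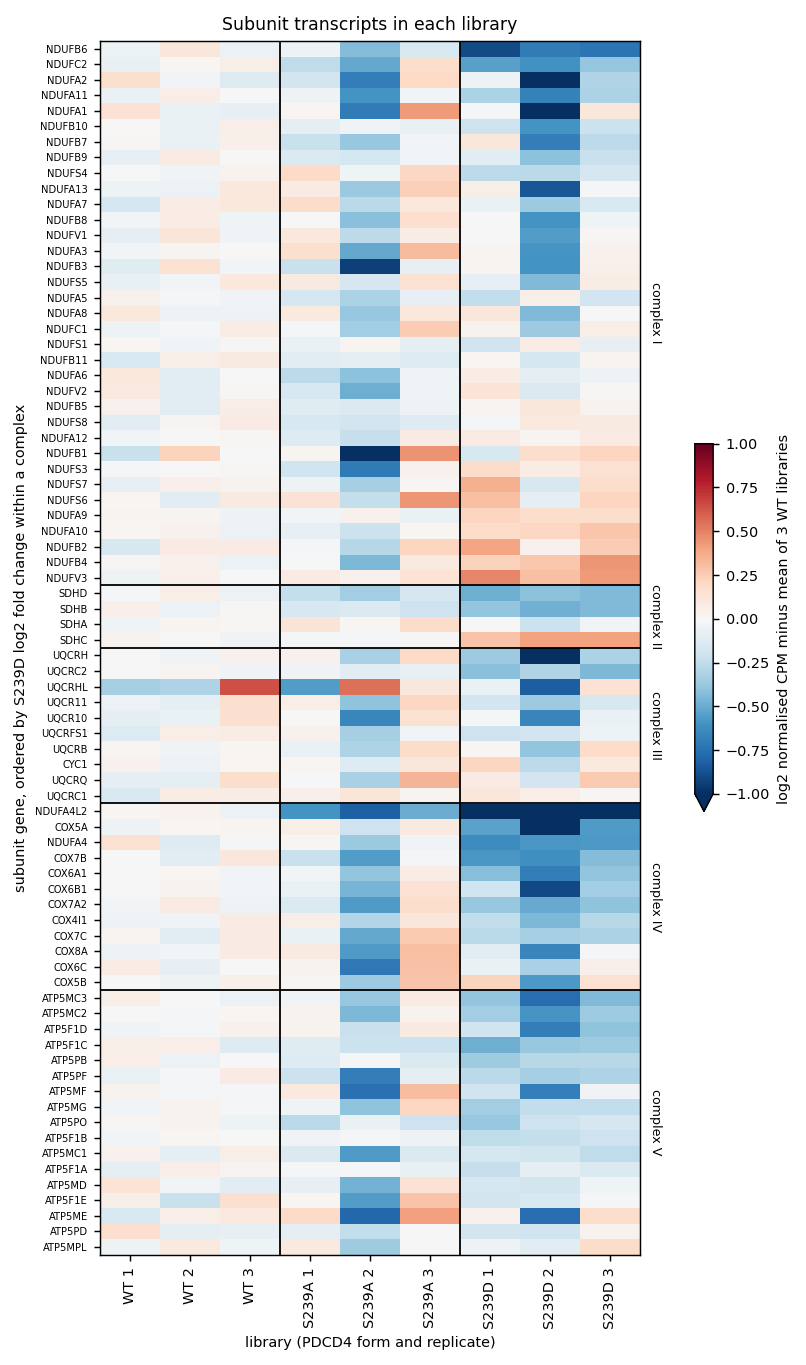
Levels of the tested subunit genes (rows, by complex; 1 is not shown) in the 9 libraries (columns), as log2 normalised CPM minus the mean of the 3 WT libraries; the colour scale stops at -1 and 1, and lower values take the darkest blue. The S239A 2 and S239D 2 columns are bluer than the other libraries of their groups, and NDUFA4L2, COX5A, NDUFA4, SDHB and SDHD are blue in all 3 S239D libraries.

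In S239D cells 25 of the 87 tested members were lower than in WT and 5 were higher (28.7% and 5.75%). Of all 16213 genes tested, 21.7% were called lower and 19.7% higher. A gene is called where its adjusted p (edgeR's quasi-likelihood test, Benjamini-Hochberg adjustment over all genes tested) is under 0.05. The median log2 fold change was -0.18 over the members, beside 0.00 over all genes. The 3 S239D libraries all lay under the 3 WT libraries for 36 members and all above for 9, where the shares of all genes were 27.4% and 26.5%. Without the 2 replicate 2 libraries 34 members were called lower and 13 higher, beside 26.3% and 25.3% of all genes, and the members' median was -0.075. By complex, complex IV had 8 of 12 tested genes lower and none higher, complex V 7 of 17 lower and none higher, complex III 2 of 10 lower and none higher, complex II 2 of 4 lower and 1 higher, and complex I 4 of 36 lower and 3 higher. Most members are abundant: 54 lie among the tested genes with a mean of 64.3 CPM or more, of which 24.7% were called lower and 26.1% higher.

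**Figure D2:**
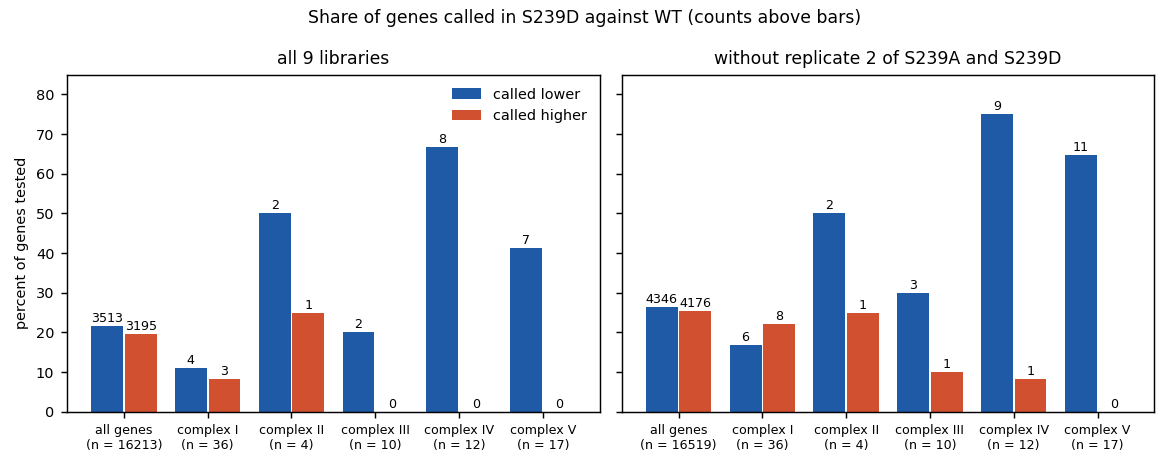
Percent of tested genes called lower (blue) and higher (red) in S239D against WT, for all genes and for each complex, with the counts above the bars; the left panel uses all 9 libraries, the right panel leaves out replicate 2 of S239A and S239D. Complexes IV and V have 8 and 7 genes called lower in the left panel and 9 and 11 in the right, while complex I has 3 called higher in the left and 8 in the right.

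**Figure D3:**
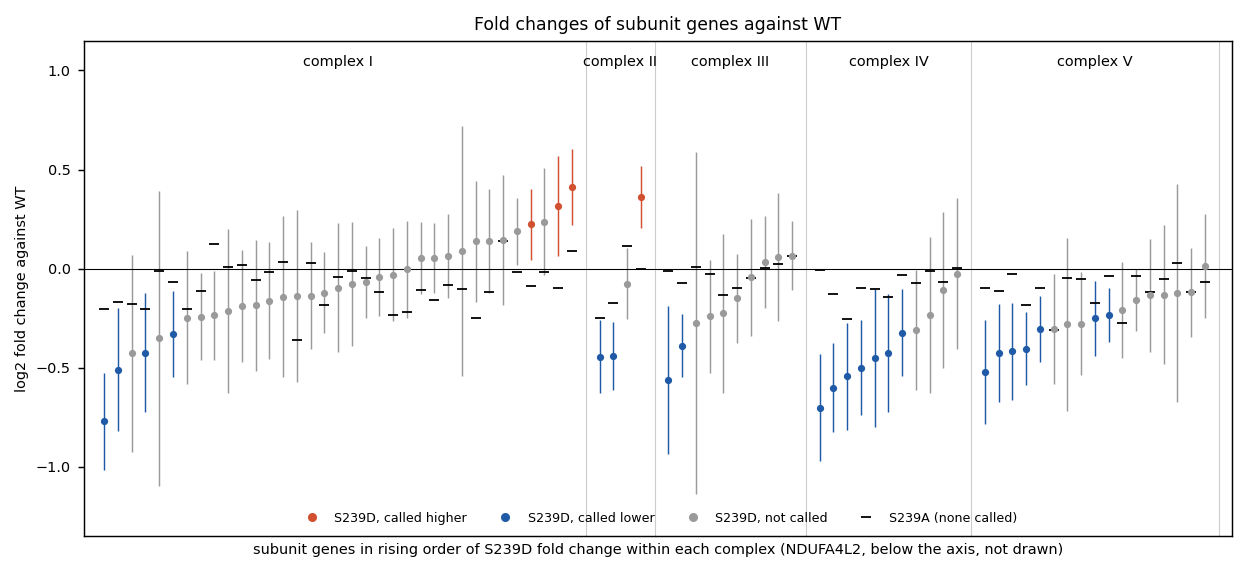
Log2 fold changes against WT of the tested subunit genes other than NDUFA4L2 and 1 that is not shown, in rising order within each complex; points with 95% intervals are S239D (blue called lower, red called higher, grey not called) and black dashes are S239A. All S239D points of complex IV lie below 0, with medians of -0.44 in complex IV (NDUFA4L2 included), -0.25 in complex V and -0.087 in complex I.

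Complex IV, cytochrome c oxidase, had the lowest median log2 fold change in S239D of the 5 complexes, -0.44 over 12 tested genes, and -0.34 without the replicate 2 libraries. A pair of these genes, NDUFA4 and NDUFA4L2, are named after complex I. NDUFA4 was later assigned to complex IV, and NDUFA4L2 is its paralog, known as a target of hypoxia-inducible factor. With both counted in complex I instead, the medians were -0.37 for complex IV and -0.11 for complex I.

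NDUFA4L2 (chromosome 12, 57234903 to 57240715) was read at 110.1, 111.2 and 104 normalised CPM in the 3 WT libraries. S239A libraries held 71.5, 61.6 and 76.9, and S239D libraries 18.6, 16.4 and 18.6. The groups did not overlap, with S239A between WT and S239D. The level in S239D was 6.06-fold lower than in WT (log2 fold change -2.60 ± 0.11 SE, adjusted p = 1.8e-09) and 3.92-fold lower than in S239A (-1.97 ± 0.11, adjusted p = 1.84e-08). S239A lay at -0.63 ± 0.098 against WT, with an adjusted p of 0.116 that missed the threshold. That p ran from 1.85e-05 to 0.713 over 19 alternatives and was under 0.05 in 6 of them, among them the fit without S239D replicate 2.

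NDUFA4 itself (chromosome 7, 10931943 to 10940153) was at 205.9, 169.6 and 183.2 CPM in WT, 187.5, 143.2 and 180.9 in S239A, against 120.3, 124.1 and 124.5 in S239D. The S239D libraries lay below all others, at -0.60 ± 0.105 against WT (adjusted p = 0.000456). By TPM, a measure scaled for transcript length, NDUFA4L2 made up 53.5 ± 2.73% (SD, n = 3) of the sum of both paralogs in WT. Its share was 44.8 ± 1.72% in S239A and 22.5 ± 1.62% in S239D. NDUFA4L2 was the more abundant of the pair in each WT library and the less abundant in each S239A and S239D library.

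COX5A (chromosome 15, 74919791 to 74938083), a matrix-side subunit near the core, was at 97.2, 102.2 and 102.8 CPM in WT and 104.8, 87.4 and 107.9 in S239A. The S239D libraries, at 69.5, 48.4 and 67.8, lay below every other library. Its level was 1.63-fold lower than in WT (-0.70 ± 0.127, adjusted p = 0.000573), and -0.55 without the replicate 2 libraries. COX7B (-0.54 ± 0.126), COX6A1 (-0.50 ± 0.112), COX6B1 (-0.45 ± 0.163), COX7A2 (-0.43 ± 0.139) and COX4I1 (-0.32 ± 0.103), which are nuclear subunits around the catalytic core, were also lower, at adjusted p of 0.00346, 0.00269, 0.04, 0.0234 and 0.0219. The calls of COX6B1, COX7A2 and COX4I1 were lost in some fits with 1 library left out. COX6B1 reached an adjusted p of up to 0.13 when any WT library, S239A 1, S239D 2 or S239D 3 was left out, COX7A2 up to 0.0824 without WT 1, WT 2, S239D 2 or S239D 3, and COX4I1 up to 0.0948 without WT 3 or S239D 2. COX6B1 was at -0.26 without the replicate 2 libraries. With limma on log2(TPM + 1) none of COX7B, COX6B1, COX7A2 and COX4I1 was called (adjusted p = 0.109, 0.119, 0.0898 and 0.0781).

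COX5B, which binds zinc beside the core, did not pass the test. It was at 123, 119.2 and 127.4 CPM in WT and at 143.8, 82.6 and 136.6 in S239D, so that 2 S239D libraries lay above WT and replicate 2 below it. Its log2 fold change was -0.026 ± 0.179 with all libraries and 0.19 without the replicate 2 libraries, where it was called higher (adjusted p = 0.0269). Tissue isoforms of complex IV were nearly silent. COX4I2, COX6A2, COX7A1 and COX7B2 had no count, COX8C had 1 count in 1 S239A library, and COX6B2 made up 0.0746 ± 0.0282% of COX6B1 and COX6B2 TPM in WT, 0.101 ± 0.0441% in S239A and 0.0579 ± 0.00959% in S239D. COX8A, the ubiquitous isoform beside COX8C, was at -0.24 ± 0.184 in S239D (adjusted p = 0.325).

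**Figure D4:**
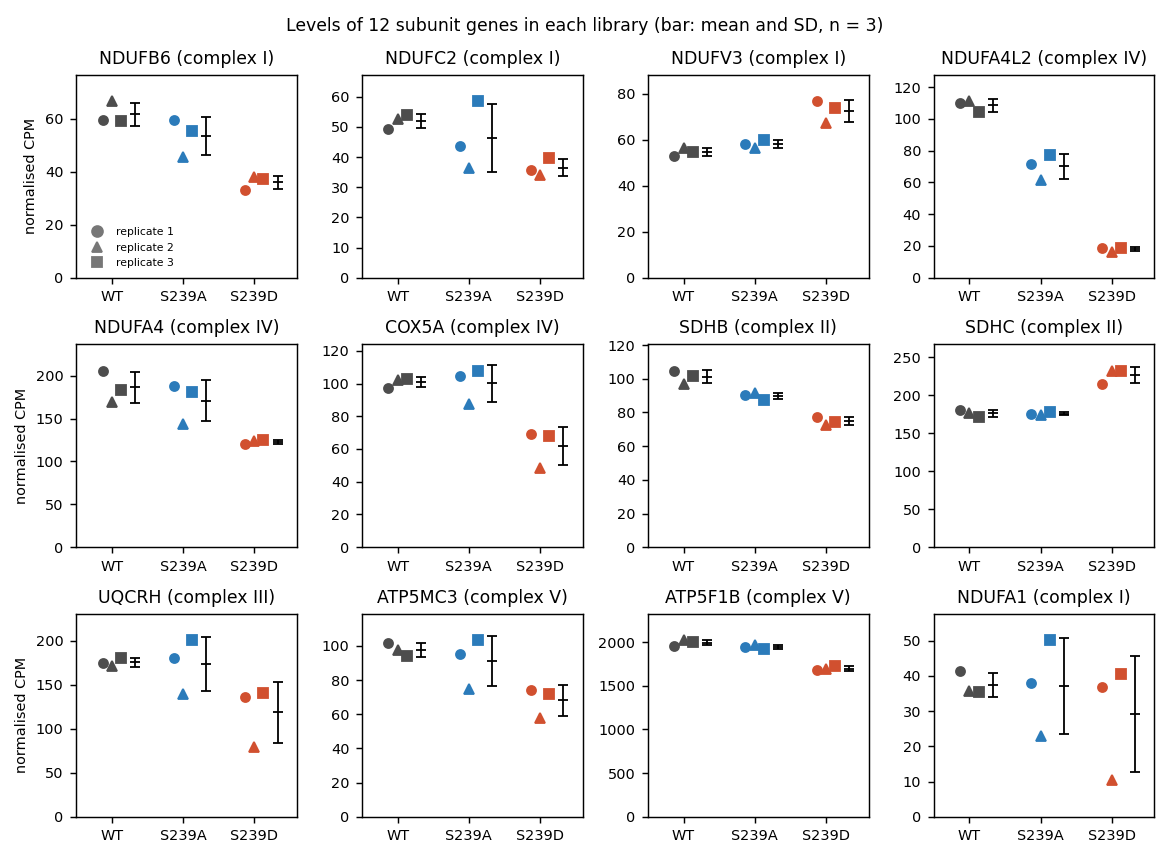
Normalised CPM of 12 subunit genes in each library by PDCD4 form (marker shape gives the replicate number, black bars mean and SD, n = 3); each vertical axis starts at 0. NDUFA4L2 falls from 104 to 111.2 in WT to 16.4 to 18.6 in S239D, SDHC and NDUFV3 lie above all other libraries in S239D, and NDUFA1, chosen for the plot after its values were seen, shows the low S239D replicate 2 library (10.4, against 36.9 and 40.5).

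Complex V, the ATP synthase, had a median log2 fold change of -0.25 in S239D over 17 tested genes, and the 3 S239D libraries were alike in it, with medians of -0.23, -0.25 and -0.21 against the WT mean. Without the replicate 2 libraries 11 of the 17 were lower and none higher, beside 26.3% and 25.3% of all genes. By part of the enzyme, 3 of 5 genes of the F1 head and central stalk were lower, 2 of 4 of the peripheral stalk, 2 of 3 of the c ring, and none of 5 small membrane subunits, beside 21.7% of all genes. These counts were 4, 3, 3 and 1 without the replicate 2 libraries, beside 26.3%.

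In the F1 head, ATP5F1B (chromosome 12, 56638175 to 56645984), which encodes the catalytic beta subunit, was at 1957, 2022 and 2003 CPM in WT, 1941, 1971 and 1921 in S239A, against 1675, 1689 and 1725 in S239D. The change was small beside others but exceeded the spread, with every S239D library below all other libraries (-0.23 ± 0.0645, adjusted p = 0.00992). The alpha subunit gene ATP5F1A was at -0.16 ± 0.0731 (adjusted p = 0.0968). ATP5F1C and ATP5F1D, the gamma and delta subunits of the central stalk, were at -0.40 ± 0.0859 (adjusted p = 0.00184) and -0.42 ± 0.115 (adjusted p = 0.00944). ATP5PB, the b subunit of the peripheral stalk, was at -0.30 ± 0.078 (adjusted p = 0.00629). Limma on log2(TPM + 1) ended the calls of ATP5F1B (-0.14, adjusted p = 0.17), ATP5F1D (-0.40, adjusted p = 0.0694) and ATP5PB (-0.12, adjusted p = 0.465).

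The c ring, which turns as protons pass, is built from copies of the same mature protein, encoded by 3 genes. ATP5MC3 was at 101.8, 97.6 and 93.8 CPM in WT, 95.5, 75 and 103.4 in S239A, against 74.5, 57.7 and 72.1 in S239D. All S239D libraries lay below all others, at -0.52 ± 0.123 against WT (adjusted p = 0.00385). ATP5MC2, the most abundant of the 3 by TPM, was at -0.43 ± 0.115 (adjusted p = 0.00864), and ATP5MC1 at -0.21 ± 0.113 (adjusted p = 0.155). ATP5MC3 made up 15 ± 0.696% of subunit c TPM in WT, 15.45 ± 0.617% in S239A and 12.9 ± 1.62% in S239D. ATP5IF1, the inhibitor that binds the F1 head under low membrane potential, was at 90.9, 83.9 and 83.8 CPM in WT and at 116, 85.1 and 117.7 in S239D. Its log2 fold change was 0.30 ± 0.15 (adjusted p = 0.121), and 0.44 without the replicate 2 libraries (adjusted p = 9.1e-06), where it was called higher.

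Complex II, which also serves the citrate cycle, had members on both sides. SDHC (chromosome 1, 161314257 to 161375340), a membrane anchor, was at 180.2, 177 and 171.8 CPM in WT and 175.3, 174.4 and 178 in S239A. The S239D libraries, at 215.1, 232.6 and 232.4, lay above every other library (0.36 ± 0.0733, adjusted p = 0.00134). With limma on log2(TPM + 1) SDHC was at 0.22 and missed the threshold (adjusted p = 0.0699). The other anchor, SDHD (chromosome 11, 112086824 to 112120016), was at 87.6, 92.4 and 84.7 in WT, 74.6, 69.5 and 78.6 in S239A, against 63, 66.4 and 64.9 in S239D. Its 3 groups did not overlap, and S239D was lower than WT (-0.44 ± 0.0863, adjusted p = 0.000994), while S239A was at -0.25 ± 0.0857 (adjusted p = 0.358).

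The iron-sulfur subunit gene SDHB (chromosome 1, 17018722 to 17054170) had the same order, with 104.9, 97.1 and 101.8 CPM in WT, 90.4, 91.5 and 87.6 in S239A, against 77.2, 72.4 and 74.7 in S239D. S239D was lower than WT (-0.44 ± 0.0801, adjusted p = 0.000618) and lower than S239A (-0.26 ± 0.0801, adjusted p = 0.0154, up to 0.0537 without S239A 1 or S239D 3, and 0.11 with limma). SDHA, the flavoprotein, was at -0.076 ± 0.0837 in S239D (adjusted p = 0.492), and pseudogene rows held 13.8% as many counts as SDHA itself, so its level is uncertain. The complex II assembly factors SDHAF3 and SDHAF4 were lower in S239D. SDHAF3, which helps the iron-sulfur subunit SDHB mature, was at -0.94 ± 0.138 (adjusted p = 0.000118; limma on log2(TPM + 1) gave -0.52) and SDHAF4, which binds flavin-loaded SDHA, at -0.75 ± 0.217 (adjusted p = 0.0125, and 0.0502 without WT replicate 1).

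In complex III the median log2 fold change in S239D was -0.19 over 10 tested genes, and -0.049 without the replicate 2 libraries. UQCRC2, a core protein on the matrix side, was at 241, 245.5 and 234.4 CPM in WT, 234.8, 223.3 and 228.3 in S239A, against 179.4, 195.3 and 176.2 in S239D. Its S239D libraries lay below all others (-0.39 ± 0.0748, adjusted p = 0.000952). UQCRH, the hinge protein at cytochrome c1, was at 174.6, 170.9 and 180.7 in WT, 180.2, 139.8 and 200.7 in S239A, against 136.4, 78.7 and 140.9 in S239D. It was lower than WT (-0.56 ± 0.175, adjusted p = 0.0189), and at -0.34 without the replicate 2 libraries. Its adjusted p reached 0.0517 without WT 1 and 0.058 without WT 3. Limma on log2(TPM + 1) ended the calls of UQCRC2 (-0.19, adjusted p = 0.122) and UQCRH (-0.58, adjusted p = 0.0727). The redox subunit genes CYC1 (0.032 ± 0.109) and UQCRFS1 (-0.15 ± 0.106) and the core gene UQCRC1 (0.065 ± 0.0812) did not pass the test, at adjusted p of 0.837, 0.276 and 0.546. Without the replicate 2 libraries CYC1 was at 0.16 and was called higher (adjusted p = 0.0149).

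Complex I, the largest, had members in both directions and a median log2 fold change of -0.087 in S239D. Its peripheral arm, which holds the flavin and the iron-sulfur clusters, had 1 of 16 genes higher and none lower (median 0.026). Its membrane arm, which pumps protons, had 2 of 20 higher and 4 lower (median -0.14). The shares of all genes were 19.7% higher and 21.7% lower, so neither arm had more calls than all genes. In S239D replicate 2 the membrane arm was at a median of -0.51 against the WT mean and the peripheral arm at -0.034, while in the other S239D libraries the membrane arm was at 0.024 and 0.032. Without the replicate 2 libraries the counts were 5 higher and 2 lower in the peripheral arm and 3 higher and 4 lower in the membrane arm, beside 25.3% and 26.3% of all genes.

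NDUFB6 (chromosome 9, 32553001 to 32573184), an accessory subunit of the membrane arm, was at 59.4, 66.7 and 59.05 CPM in WT, 59.5, 45.6 and 55.5 in S239A, against 33.2, 37.9 and 37.2 in S239D. All S239D libraries lay below all others, and the change of -0.77 ± 0.115 (adjusted p = 0.000122) was the largest fall among the genes counted in complex I. It was -0.80 without the replicate 2 libraries. NDUFC2, another accessory subunit, was at 49.4, 52.7 and 54.1 in WT, 43.6, 36.5 and 58.6 in S239A, against 35.6, 34.2 and 39.7 in S239D (-0.51 ± 0.145, adjusted p = 0.0115). S239D and S239A overlapped there, and reads of the readthrough gene NDUFC2-KCTD14, which covers NDUFC2, could have been split between both.

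NDUFA11 (-0.42 ± 0.14, adjusted p = 0.0253) and NDUFB10 (-0.33 ± 0.101, adjusted p = 0.0171) were also lower in S239D. Both calls were lost in some fits with 1 library left out. The adjusted p of NDUFA11 reached up to 0.0826 without any 1 WT library or S239D 2, and that of NDUFB10 up to 0.0745 without WT 1 or WT 3. NDUFB10 was at -0.22 without the replicate 2 libraries. On the other side, NDUFV3 (chromosome 21, 42879644 to 42913304), a small subunit at the flavin end, was at 52.8, 56.5 and 54.7 CPM in WT, 58, 56.3 and 60 in S239A, against 76.8, 67.3 and 73.6 in S239D. The S239D libraries lay above all others (0.41 ± 0.0896, adjusted p = 0.00225). Limma on log2(TPM + 1) put it at 0.64. NDUFB4 rose by 0.32 ± 0.118 (adjusted p = 0.044); it lies on chromosome 3, where the median tested gene was at 0.22. NDUFA10 rose by 0.22 ± 0.0839 (adjusted p = 0.0441). The call of NDUFB4 was lost without any 1 WT library, S239A 1 or S239D 3 (adjusted p up to 0.165), and that of NDUFA10 without any 1 WT library, S239A 1, S239D 1 or S239D 3 (up to 0.161). Limma on log2(TPM + 1) called neither NDUFB4 (0.36, adjusted p = 0.0687) nor NDUFA10 (0.097, adjusted p = 0.688).

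The catalytic genes of complex I did not pass the test. NDUFV1, the flavin and NADH site, was at -0.16 ± 0.138 (adjusted p = 0.373), NDUFS1, the largest iron-sulfur subunit, at -0.067 ± 0.0845 (adjusted p = 0.554), and NDUFS7, next to the coenzyme Q site, at 0.14 ± 0.123 (adjusted p = 0.387). Without the replicate 2 libraries NDUFS7 was called higher at 0.27 (adjusted p = 0.00128) and NDUFS1 lower at -0.14 (adjusted p = 0.035). Among the other members, NDUFA6-DT, which starts next to NDUFA6 on the opposite strand and does not overlap it, was higher in S239D (0.46 ± 0.156, adjusted p = 0.0293). That call was lost without WT 2 or any 1 S239D library (up to 0.112), and with limma on log2(TPM + 1) (0.276).

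S239A was compared with WT in the same fit. None of the 87 members was called in either direction by edgeR, beside 0% of all genes higher and 0.00617% lower. DESeq2 called 1 lower, beside 0.144% of all genes, and limma on log2(TPM + 1) called none. At an unadjusted p under 0.05, 6 members were lower and none higher, beside 4.29% and 5.47% of all genes. The 3 S239A libraries lay under all WT libraries for 9 members and above for none (9.55% and 9.94% of all genes). The median log2 fold change was -0.070, and 0.030 without S239A replicate 2. Without both replicate 2 libraries NDUFA4L2 (-0.54) and ATP5PO, of the peripheral stalk of complex V (-0.23), were called lower, and ATP5MF, a small membrane subunit of complex V (0.21), higher, beside 2.62% and 2.68% of all genes. ATP5PO and ATP5MF are named here after their values were seen. ATP5MF overlaps the readthrough gene ATP5MF-PTCD1.

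Set against S239A, S239D had 20 members lower and 10 higher, beside 22.7% and 20.9% of all genes, with a median of -0.13. This comparison shares the S239D libraries with the one against WT. By complex, complex I had 7 of 36 higher and 3 lower, complex IV 5 of 12 lower and complex V 6 of 17 lower, with none higher in either. Some members were called here that were not called against WT. Among those higher in S239D than in S239A were NDUFS3 (0.39 ± 0.143, adjusted p = 0.0392) and NDUFS8 (0.21 ± 0.0826, adjusted p = 0.0478), which are core subunits of the peripheral arm of complex I, NDUFA9 (0.20 ± 0.0788, adjusted p = 0.0494), which supports that arm at the membrane, and ATP5IF1 (0.41 ± 0.149, adjusted p = 0.0385), the complex V inhibitor. NDUFS4, an accessory subunit of the same arm (-0.36 ± 0.104, adjusted p = 0.0121), and COX7A2L, a factor that joins complexes III and IV (-0.50 ± 0.155, adjusted p = 0.017), were lower. Against WT these named genes lay at 0.14, 0.055, 0.19, 0.30, -0.23 and -0.40 in that order. Their calls were lost in some fits with 1 library left out. NDUFS3, NDUFS8, NDUFA9 and ATP5IF1 lost theirs without any 1 WT library and without S239D 3, among others, with adjusted p of up to 0.102, 0.133, 0.147 and 0.143. A WT library enters this comparison only through the shared fit. Across these fits the log2 fold changes were 0.21 to 0.57, 0.20 to 0.25, 0.18 to 0.23 and 0.25 to 0.56 in that order. NDUFS4 (up to 0.0528) and COX7A2L (up to 0.052) lost theirs without S239A 1 and without S239A 3, and COX7A2L also without S239D 1. With limma on log2(TPM + 1) the value of COX7A2L was -0.036 (adjusted p = 0.917) and that of ATP5IF1 0.19 (adjusted p = 0.624), NDUFS3 was not called (adjusted p = 0.0758), and NDUFA9 was at 0.34. Without both replicate 2 libraries NDUFS3 was at 0.24. Without both replicate 2 libraries 34 members were lower than S239A and 11 higher, beside 25.2% and 24.7% of all genes.

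By TPM, ATP5MF, ATP5F1B, ATP5ME and COX6A1 had the highest mean levels of the members over all libraries, at 3222, 1721, 1621 and 1464. The nuclear subunit genes summed to 31580 ± 805 TPM (SD, n = 3) in WT, to 29750 ± 4752 in S239A and to 28160 ± 3496 in S239D. The mitochondrially encoded subunits summed to 64030 ± 1014, 87560 ± 26750 and 128200 ± 14680 TPM. The 2 sums moved apart in S239D: their ratio, mitochondrial to nuclear, was 1.95 to 2.11 in the WT libraries and 3.88 to 6.01 in S239D, which did not overlap, and 2.42, 4.83 and 2.06 in S239A, which overlapped both. Sums were not tested. TPM adds up to a fixed total, so a larger mitochondrial part leaves a smaller one for nuclear transcripts. The median log2 fold change of all genes was still at 0.082 for S239D against WT with limma on log2(TPM + 1). With TPM rescaled to the same total without mitochondrial transcripts, all nuclear subunits summed to 33910, 34740 and 33090 in WT and 34430, 28440 and 34640 in S239D, which overlapped. The nuclear subunits of complex IV stood at 7839, 7863 and 7741 in WT and 7178, 5722 and 7040 in S239D, still apart. Those of complex II stood at 683.2, 678.2 and 645.8 in WT and, higher and also apart, at 702.2, 728.2 and 684.5 in S239D. Before rescaling the complex II sums overlapped, at 600.6 to 636.1 in WT and 596.2 to 617.8 in S239D. SDHC, called higher, had the highest mean TPM of the 4 complex II genes, while SDHB and SDHD were called lower. Complex V stood at 13220, 13500 and 12420 and at 12940, 11160 and 13480, and complex I at 9166, 9716 and 9171 and at 10440, 8272 and 10270, and both overlapped. Complex III overlapped as well, at 2979 to 3112 in WT and 2560 to 3175 in S239D.

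**Figure D5:**
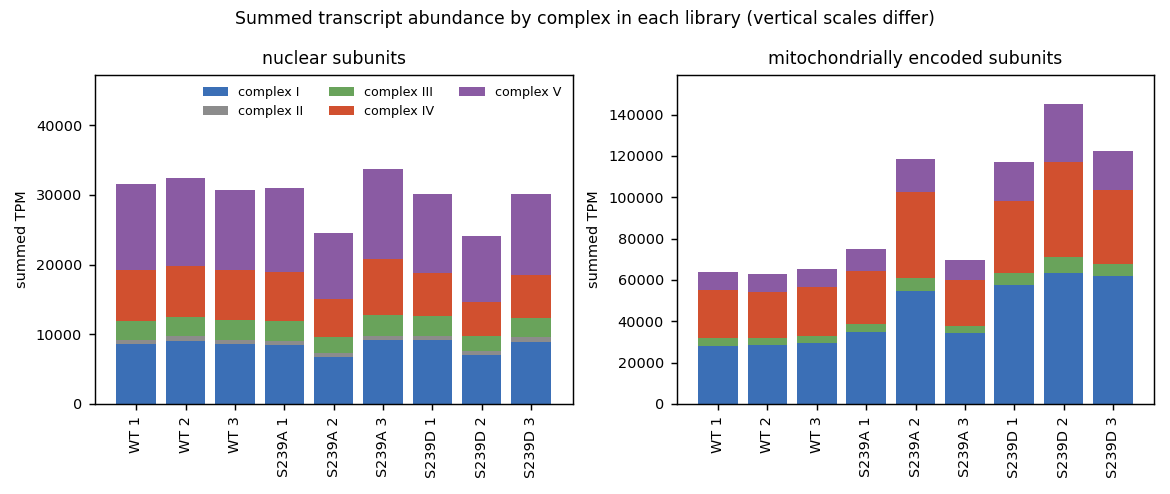
Summed TPM of nuclear (left) and mitochondrially encoded (right) subunit genes by complex in each of the 9 libraries; the 2 vertical scales differ. The right bars rise from 63010 to 65040 in WT to 117200 to 144900 in S239D, and S239A replicate 2, at 118300, stands with S239D.

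Of the 13 mitochondrially encoded subunit genes, 12 were higher in S239D than in WT and none lower (median 0.97), beside 19.7% and 21.7% of all genes. The exception was MT-CO3 (0.25 ± 0.141, adjusted p = 0.178). MT-ND6, the subunit encoded on the other strand, was at 1.66 ± 0.197 (adjusted p = 1.82e-05), MT-ND3 at 0.97 ± 0.13 (adjusted p = 5.09e-05) and MT-ATP6 at 1.12 ± 0.182 (adjusted p = 0.000247). Strandedness is not given, so reads assigned to MT-ND6 may include RNA of the opposite strand. In S239A none of the 13 was called (median 0.42). S239A replicates 1, 2 and 3 lay at medians of 0.23, 0.89 and 0.046 against the WT mean. Without the replicate 2 libraries all 13 were higher in S239D (median 0.78) and 5 were higher in S239A (median 0.14), beside 25.3% and 2.68% of all genes.

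Assembly factors of the complexes, which do not end up in the finished enzyme, were called in both directions in S239D, 5 higher and 6 lower of 51 (9.8% and 11.8%, median -0.012), fewer than the 19.7% and 21.7% of all genes. The list includes SDHAF1 to SDHAF4, which are also members, and SDHAF3 and SDHAF4 are among the 6 lower. Without the replicate 2 libraries 9 assembly factors were higher and 9 lower (17.6% each, beside 25.3% and 26.3% of all genes). FOXRED1, a complex I assembly factor, was at 181, 173 and 184.2 CPM in WT, 190.8, 165.5 and 192.9 in S239A, against 69.2, 70.55 and 70.35 in S239D. The S239D libraries lay far below both other groups (-1.36 ± 0.0846, adjusted p = 6.96e-08). CMC2, of complex IV assembly, was at -0.97 ± 0.109 (adjusted p = 1.06e-05). NDUFAF8, which partners NDUFAF5 in complex I assembly, rose by 0.60 ± 0.132 (adjusted p = 0.00233), and the complex IV factors COX19 and COA3 by 0.54 ± 0.116 and 0.43 ± 0.10 (adjusted p = 0.00218 and 0.00352). Among cytochrome c and coenzyme Q genes, 3 were higher and 3 lower of 12 (25% and 25%), near the shares of all genes. The counts were the same without the replicate 2 libraries, beside 25.3% and 26.3% of all genes. CYCS, the mobile carrier between complexes III and IV, was at -0.40 ± 0.0787 (adjusted p = 0.00106), COQ3 and COQ7 at -0.58 and -0.30, and COQ4, COQ8A and COQ9 at 0.43, 0.40 and 0.26.

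Of 13 regulators of mitochondrial biogenesis, 2 were higher and 1 lower in S239D (15.4% and 7.69%, below the shares of all genes). The counts were 3 and 2 without the replicate 2 libraries (23.1% and 15.4%, beside 25.3% and 26.3% of all genes). PPRC1, a coactivator of the PGC-1 family, was at 68.4, 64.1 and 60.5 CPM in WT, 65.3, 65 and 62.9 in S239A, against 103.4, 111 and 115.3 in S239D. S239D lay above both other groups (0.77 ± 0.0866, adjusted p = 1.09e-05). PPARGC1B, of the same family, rose by 0.34 ± 0.12 (adjusted p = 0.0358), and CHCHD2, a protein that binds complex IV and also acts in the nucleus, fell by 0.68 ± 0.0878 on the log2 scale (adjusted p = 3.66e-05). Of 13 citrate cycle genes, 5 were lower and 1 higher (38.5% and 7.69%, beside 21.7% and 19.7% of all genes), and 6 and 2 without the replicate 2 libraries (26.3% and 25.3% of all genes). SUCLG1 and SUCLA2, subunits of succinyl-CoA ligase, were at -0.51 and -0.38, DLD, the shared dihydrolipoamide dehydrogenase, at -0.37, and IDH3B, of isocitrate dehydrogenase, at 0.37.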

How the data were processed

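Poly-A RNA of 9 libraries was sequenced. The authors deposited expected counts per gene (RSEM) and TPM, also from RSEM, after trimming with Trimmomatic 0.39, per the submitters' processing notes; the sources used here do not give aligner, build or strandedness. The deposited table's coordinates of all 97 members overlap the same gene in GENCODE 29 (GRCh38). Counts were rounded, filtered with filterByExpr (16213 genes left), scaled by TMM and tested with edgeR 4.0.16 in R 4.3.3 in 1 fit of 9 libraries, two-sided. Levels are TMM-normalised CPM. SE and 95% intervals are from the fit. Scripts were tested on simulated data. Alternatives were RLE factors, DESeq2 1.42.0, limma 3.58.1 on log2(TPM + 1) (3 libraries or more with 1 TPM), no filter, 1 CPM in 6 libraries, compared groups alone, a replicate block, GC and length trends removed, mitochondrial genes left out, and each library left out; 1 was added. Members and lists were chosen with earlier results of these data known. Named were up to 5 called members per complex and direction, landmark subunits, isoform pairs, and up to 3 called genes per list and direction. Pseudogene rows held 0.276% as many counts as members. Of the members, 1 is counted in the totals and is not reported here by itself.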

Additional observations from a re-analysis of the deposited data

How the results depend on the processing

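With 1 library left out, the median log2 fold change over all members was -0.25 to -0.075 for S239D against WT and -0.17 to 0.030 for S239A against WT. The main fit gave -0.18 and -0.070. Moves in all alternatives lay within the spread between replicates. The replicate 2 libraries of S239A and S239D (-0.33 and -0.36, others -0.10 to 0.081) widen that spread, so it cannot show that the medians are stable. Medians of single complexes moved by more: for S239D against WT, complex I was at 0.032 and complex III at -0.049 without S239D 2, complex II at -0.15 and complex V at -0.20 with limma on TPM, and complex V at -0.29 without S239D 3. For S239A against WT, 1 member was lower with DESeq2, without a filter, with the replicate block and with GC and length trends removed, 0 to 1 with 1 library left out (1 without S239D 2), and, without both replicate 2 libraries, 2 were lower and 1 higher. The shares of all genes lower were, in that order, 0.144%, 0.164%, 0.0185%, 0.0678%, 0.0181% without S239D 2, and 2.62% (2.68% higher) without both replicate 2 libraries. For S239D against WT, limma on TPM gave 2 higher and 15 lower, and leaving out 1 library 2 (without WT 2 or S239D 3) to 7 higher and 18 to 34 lower (3 higher without WT 1, WT 3, S239A 1 or S239D 1). Without both replicate 2 libraries 13 were higher and 34 lower, beside 25.3% and 26.3% of all genes, and COX5B turned to 0.19. For S239D against S239A, 6 were higher without a filter, 4 with the compared groups alone and 3 (without S239D 3) to 10 with 1 library left out (5 or 6 without any 1 WT library, S239A 1, S239A 2 or S239D 1). Of all genes, 12.2%, 17.6% and 16.6% to 21.2% were higher, in that order. Limma gave 5 lower, leaving out 1 library 9 (without S239A 3, and 10 without S239A 1) to 31 (without S239A 2), and leaving out both replicate 2 libraries 34. Of all genes, 11%, 18.8% to 22.3% and 25.2% were lower, in that order. The causes were not tested, beyond fewer samples in the last fits. In both S239D comparisons limma on TPM also moved the median of all genes up by 0.08 to 0.09. Same-numbered libraries correlated at -0.0087 to 0.251, and in 10 of 18 comparisons a library correlated best with its own number, so the numbers were not taken to pair the samples. The replicate block gave 6 higher and 30 lower against WT, beside 21.4% and 23.5% of all genes. Against S239A it gave 11 and 23, beside 22.9% and 24.1%.

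Depth limits the 10 members with 0 to 13 counts, which were not tested. With 3 libraries a group, p-values rest on few samples, and leaving out 1 of them ended the call of 10 of 29 named members in S239D against WT and of 20 of 30 in S239D against S239A. Pseudogene reads could move SDHA (13.8%), UQCRFS1 (3.44%) and NDUFV2 (2.04%).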
